A study of Mus musculus with 14 samples.

Results

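The comparison described here is that of the most diluted bone marrow stem and progenitor cells, GFP0, with the neighbouring levels GFP1 and GFP2. It rests on 8 of 14 Affymetrix arrays: 2 of GFP0, all that there are, 3 of GFP1 and 3 of GFP2. The arrays were chosen by the GFP level in their titles, and all 18194 named genes were compared, each through 1 probe set. All groups came from the same kind of animal, hCD34 x H2BGFP double transgenic mice on a C57BL/6 background, in which a human CD34 promoter drives a tetracycline-controlled activator and so a GFP-tagged histone H2B. Every group drank water with doxycycline, at 1 mg/ml, which shut the fusion gene off; this chase lasted 12 weeks and began at 6 to 8 weeks of age. Lineage-negative, Sca1+ and Kit+ (LSK) cells were then sorted at GFP levels from 0 to 4, neighbouring levels lying some 1 to 2 divisions apart and GFP0 holding the least label. The driver is described as active in stem and multipotent progenitor cells, and a cell that never made the fusion protein would also be sorted as GFP0. The replicates are called biological without naming animals. A p-value here reflects only how much the sorted samples vary, with a precision limited by the number of arrays. For each gene the spread was shared over all 14 arrays, so the 2 GFP0 arrays are assumed to vary like those of the other levels.

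The LSK fraction holds hematopoietic stem cells (HSCs), which divide rarely and keep long-term blood formation going, and multipotent progenitors, which divide more often and lead toward lymphoid, granulocytic, mast cell, erythroid and megakaryocytic fates. Each division dilutes the labelled histone, so among cells that made it label level follows divisional history. GFP0 could also hold cells that never made it, so its level need not reflect divisions alone. Known features of the progression out of the stem cell state are loss of HSC transcription factors such as Hlf and Mecom and first expression of lineage genes such as Il7r or Gata1. All levels below are log2 expression, and all differences are log2 differences of GFP0 minus the mean of the GFP1 and GFP2 group means, with a moderated standard error (SE).

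Hspa1a, of the heat shock genes, and H2-Aa, of the major histocompatibility complex (MHC), were among the genes with both GFP0 arrays above the 6 others, and their promoters hold the letters of elements known from these gene groups. H2-Eb1, whose GFP0 arrays overlapped with the 6, is shown for comparison. The stretches below run from 120 to 36 bases before the gene start, from RefSeq on build GRCm38.p6, 5′ to 3′ on the strand of the gene. Capitals mark the heat shock element searched as GAANNTTC, or the Y box of class II promoters searched as CTGATTGG, each on both strands.
Hspa1a (chr17:34972192-34972276, minus strand): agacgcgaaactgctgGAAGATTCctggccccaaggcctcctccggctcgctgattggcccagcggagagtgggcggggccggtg
H2-Aa (chr17:34287859-34287943, minus strand): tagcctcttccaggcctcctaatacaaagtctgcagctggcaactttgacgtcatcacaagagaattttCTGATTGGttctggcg
H2-Eb1 (chr17:34305747-34305831, plus strand): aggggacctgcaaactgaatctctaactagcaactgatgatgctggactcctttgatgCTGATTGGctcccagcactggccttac
The same stretch of Hspa1b, the neighbouring copy of Hspa1a (chr17:34959274-34959358), was identical to that of Hspa1a in 85 of 85 bases. The Hspa1a stretch also holds the letters of the Y box, printed in lower case. In windows of 250 bases before the start, 6.69% of 32851 promoters held the heat shock element and 3.83% the Y box, and 6 of the 16 heat shock list genes with a promoter sequence held the former. Of the 5 heat shock genes above all 6 arrays, Hspa1a and Hspa1b held it, and Hsph1, Bag3 and Serpinh1 did not. In the antigen presentation list 6 of 13 genes with a promoter sequence held the Y box, namely H2-Aa, H2-Eb1 and H2-Oa of class II and H2-D1, Psmb9 and Tap1 of the class I pathway. Of the 2 with both GFP0 arrays above all 6 and a promoter sequence, H2-Aa held it and H2-DMb2 did not. These are matches of letters, not measured binding.

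No gene passed an adjusted p of 0.05 between GFP0 and the 6 arrays (0 of 18194 tested, 0%, limma with Benjamini-Hochberg adjustment), and the smallest adjusted p was 0.112, for Hspa1a. At an unadjusted p below 0.05 there were 3072 genes, 16.9% of those tested. Of these 1754 (9.64%) were higher in GFP0 and 1318 (7.24%) lower. Both GFP0 arrays lay above all 6 others for 1342 genes (7.38%) and below all 6 for 1222 (6.72%). The median size of a difference was 0.29, beside a median SE of 0.25, and 132 genes were more than 1 higher while 328 were more than 1 lower. What follows is therefore a description of values, in which no single gene is called.

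GFP0 replicate 2 resembled the 6 other arrays more closely than it resembled GFP0 replicate 1. The GFP0 arrays correlated with each other at r = 0.949 over all genes, GFP0 replicate 1 with the 6 others at 0.911 to 0.945 and GFP0 replicate 2 at 0.955 to 0.979, and the 6 others among themselves at 0.939 to 0.990; genes are not independent replicates. GFP0 replicate 1 also had the narrowest spread of values of all arrays, with an interquartile range of 2.09 against 2.41 in replicate 2 and 2.32 to 2.73 in the 6 others. The 3′ minus 5′ difference of the Actb control probes, a sign of RNA length, was 4.39 and 4.51 in GFP0 and 2.99 to 4.72 in the 6; that of Gapdh was 5.46 and 4.84 against 5.02 to 6.52. Kit, the receptor of stem cell factor and part of the sorted phenotype, measured 8.81 and 8.22 in GFP0 and 8.05 to 9.91 in the others. Its probe sets had differences of -0.48 and -0.55. The Sca1 gene was not analysed here, and Kit transcript alone does not show the sorted phenotype.

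Leaving out GFP0 arrays changed the outcome. Without GFP0 replicate 2, 567 genes passed the adjusted threshold, 337 higher and 230 lower, and 6048 passed at an unadjusted p below 0.05. Without GFP0 replicate 1, 3 genes passed (Hspa1a, Trgv4 and St8sia6, all higher) and the unadjusted count was 747. In both fits the lone GFP0 array is assumed to vary like the arrays of other groups. Leaving out any 1 of the 6 GFP1 and GFP2 arrays gave 0 calls, with unadjusted counts from 2076 to 3566. For this reason list medians below are given for each GFP0 array, in parentheses in the order of replicates 1 and 2 where not named. Over all genes these were 0.03 and 0.00.

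**Figure D1:**
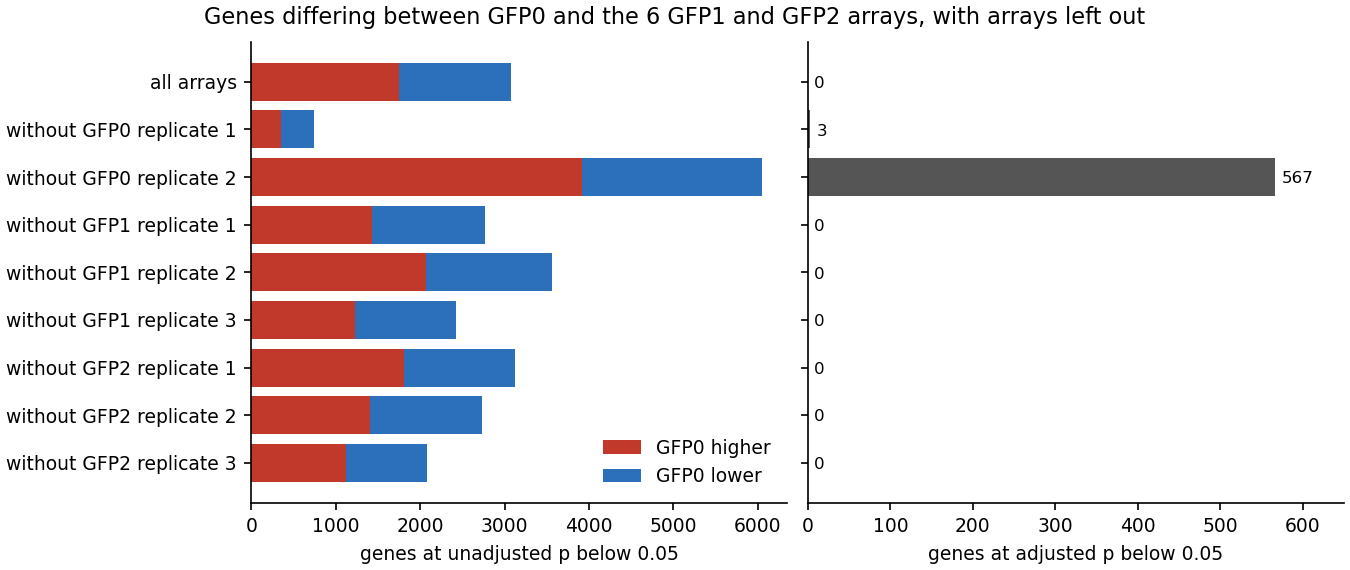
Number of genes differing between GFP0 and the 6 GFP1 and GFP2 arrays with all arrays and with each of the 8 left out, at an unadjusted p below 0.05 (left, stacked by direction) and at an adjusted p below 0.05 (right). The count at the right is 0 with all arrays, 3 without GFP0 replicate 1 and 567 without GFP0 replicate 2.

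The difference varied with how brightly a gene was measured. With genes ordered by their 6-array mean and split into 4 equal groups, the median difference was 0.26 in the dimmest group (means of 2.89 to 6.43), 0.16 and -0.14 in the middle groups and -0.20 in the brightest (9.14 to 14.78). This came from GFP0 replicate 1, whose medians over the same groups were 0.47, 0.32, -0.24 and -0.44, whereas those of replicate 2 were 0.05, -0.02, -0.07 and 0.01. Both GFP0 arrays lay above all 6 for 16.9% of the dimmest genes and 1.82% of the brightest, and below all 6 for 2.35% and 8.88%. With the interquartile range of each array in the model, 994 of 18194 genes were at an unadjusted p below 0.05, in place of 3072. The part of array spread in the differences of single genes was not tested. The shares of all genes printed beside list counts below are not matched for brightness.

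**Figure D2:**
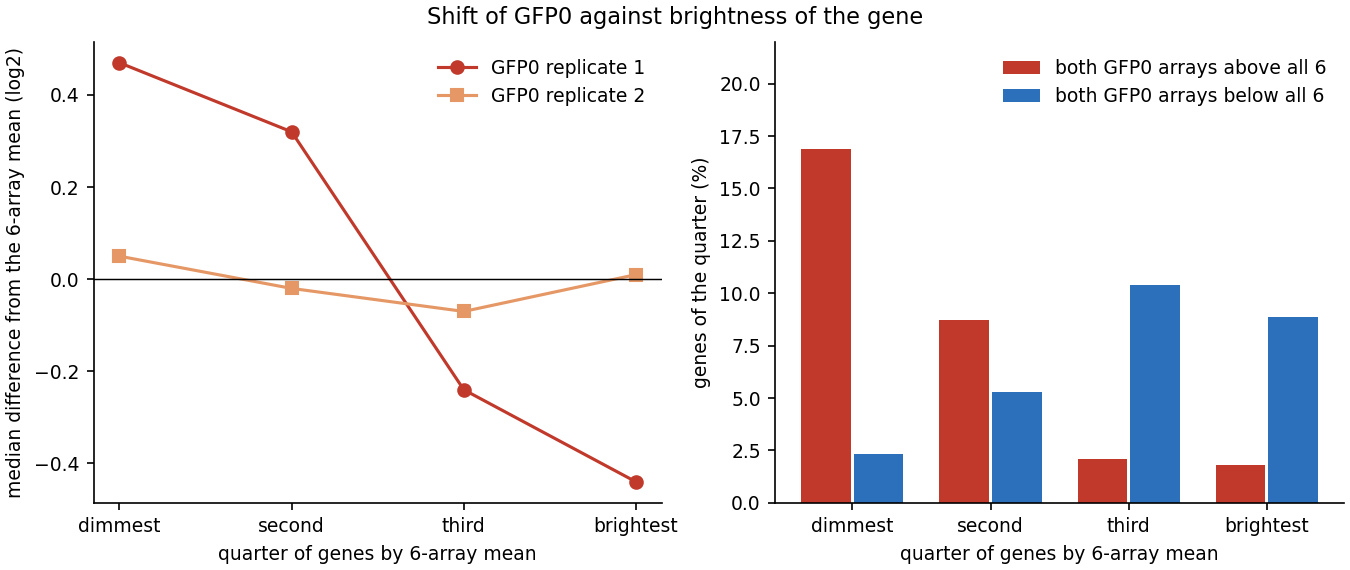
Left, median log2 difference of each GFP0 array from the mean of the 6 GFP1 and GFP2 arrays in 4 equal groups of genes ordered by that mean. Right, percentage of genes in each group with both GFP0 arrays above or below all 6. Replicate 1 goes from 0.47 in the dimmest group to -0.44 in the brightest, while replicate 2 stays between -0.07 and 0.05.

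Most genes of the HSC state measured lower in GFP0 than the mean of the 6 arrays, more so in replicate 1. Over the 31 measured HSC genes the median difference was -0.58, beside 0.03 over all genes, and it was -0.75 in GFP0 replicate 1 and -0.45 in replicate 2. Both arrays were below the 6-array mean for 19 of the 31, where 28.7% of all genes were, and above it for 3. The mean level of the list was 8.32 and 8.76 in the GFP0 arrays and 8.56 to 9.73 in the 6, so that replicate 1 was below the 6 and replicate 2 within them, above 1 GFP1 array at 8.56 and beside another at 8.77. At an unadjusted p below 0.05, 13 of 31 were lower, where 7.24% of all genes were, and 2 were higher; 0 passed the adjusted threshold. The median difference was -0.94 against GFP2 and -0.26 against GFP1, comparisons that share the GFP0 arrays. It kept its sign in all 28 alternative settings, between -0.78 and, with the interquartile range of the arrays in the model, -0.21.

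Hlf, a transcription factor of HSC self-renewal, measured 8.83 and 8.77 in GFP0 and 9.42, 10.86 and 11.27 as the lowest, median and highest of the 6 (difference -1.87 ± 0.40 SE, adjusted p = 0.176). Both GFP0 arrays were thus below all others. Alcam, an adhesion molecule of HSCs, was at 6.69 and 8.66 against 8.98 to 9.80, and Esam, another surface marker of HSCs, at 8.30 and 8.68 against 9.05 to 10.34, again without overlap. Ifitm3, an interferon-induced membrane protein that is high in HSCs, gave the tightest separation, 12.69 and 12.52 against 13.44 to 13.71 (-0.93 ± 0.17 SE, adjusted p = 0.139). Mecom, which is needed for HSC maintenance, was at 7.83 and 8.19 and Procr, the HSC surface protein EPCR, at 8.42 and 8.41; their 6 arrays ran from 7.79 to 10.58 and from 7.41 to 10.90, so that the groups overlapped. Ndn, an imprinted gene linked to quiescence, was at 8.04 and 8.80 against 8.61 to 10.38 (-1.28 ± 0.30 SE, adjusted p = 0.196), an overlap at its lower end. Of the 8 Ndn probe sets 3 had differences of 0.80 to 0.98, and over the mean of its probe sets the difference was -0.63. Not every list gene was lower: Egr1 and Rarb, a retinoic acid receptor, lay above all 6. In the whole list 4 of 31 genes were below all 6 and 2 above, where 6.72% and 7.38% of all genes were. In the brightest group of genes, which held 14 of the 31, those shares were 8.88% and 1.82%.

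Other genes named with the HSC state had wide ranges. Vwf, made by platelet-biased HSCs and megakaryocytes, was 4.41 in GFP0 replicate 1 and 7.77 in replicate 2, where the 6 ran from 7.39 to 8.00, so its difference of -1.61 came from replicate 1. Meis1, a partner of Hox proteins, was at 11.27 and 11.50 against 11.14 to 12.87. Cd34, the human form of whose promoter drives the transgene, was at 10.22 and 10.91 against 10.30 to 12.01 (-0.79 ± 0.36 SE, adjusted p = 0.29). The brightest Meg3 probe set, of a maternally expressed noncoding RNA known from HSCs, read 7.10 and 6.25 in GFP0, 8.06 to 10.09 in the 6, and means of 11.00 in GFP3 and 12.64 in GFP4. Other Meg3 probe sets had differences up to 1.00 in the opposite direction, and over the mean of its probe sets the difference was -0.12.

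Lineage genes stood beside these differences, and lists of other cell types were therefore measured in the same arrays. Mean levels in GFP0 replicate 1 and 2 were 10.20 and 8.61 for 20 neutrophil granule genes (6 arrays, 7.12 to 9.59), 8.87 and 8.58 for 17 monocyte and macrophage genes (7.75 to 9.31), 8.65 and 8.69 for 16 mast cell and basophil genes (7.43 to 8.70) and 8.75 and 7.62 for 22 B lineage genes (7.10 to 8.06). T and NK cell genes (22) averaged 8.18 and 7.40 (7.18 to 7.59), dendritic cell genes (15) 8.43 and 7.68 (7.53 to 8.13), erythroblast genes (10) 8.36 and 8.47 (8.13 to 8.40) and endothelial and stromal genes (19) 7.42 and 6.97 (6.81 to 7.31). GFP0 replicate 1 was thus outside and above the range of the 6 for neutrophil, B lineage, T and NK, dendritic and endothelial lists. Replicate 2 was inside that range for all of these, and above it for erythroblast genes. With the interquartile range of the arrays in the model the median difference of the endothelial and stromal list was -0.08 in place of 0.33. That of the monocyte and macrophage list was 0.09 in place of 0.31. Fewer cells of a type and less RNA per cell cannot be told apart in sorted bulk samples, and the part of other cell types in the lower HSC genes was not tested.

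**Figure D3:**
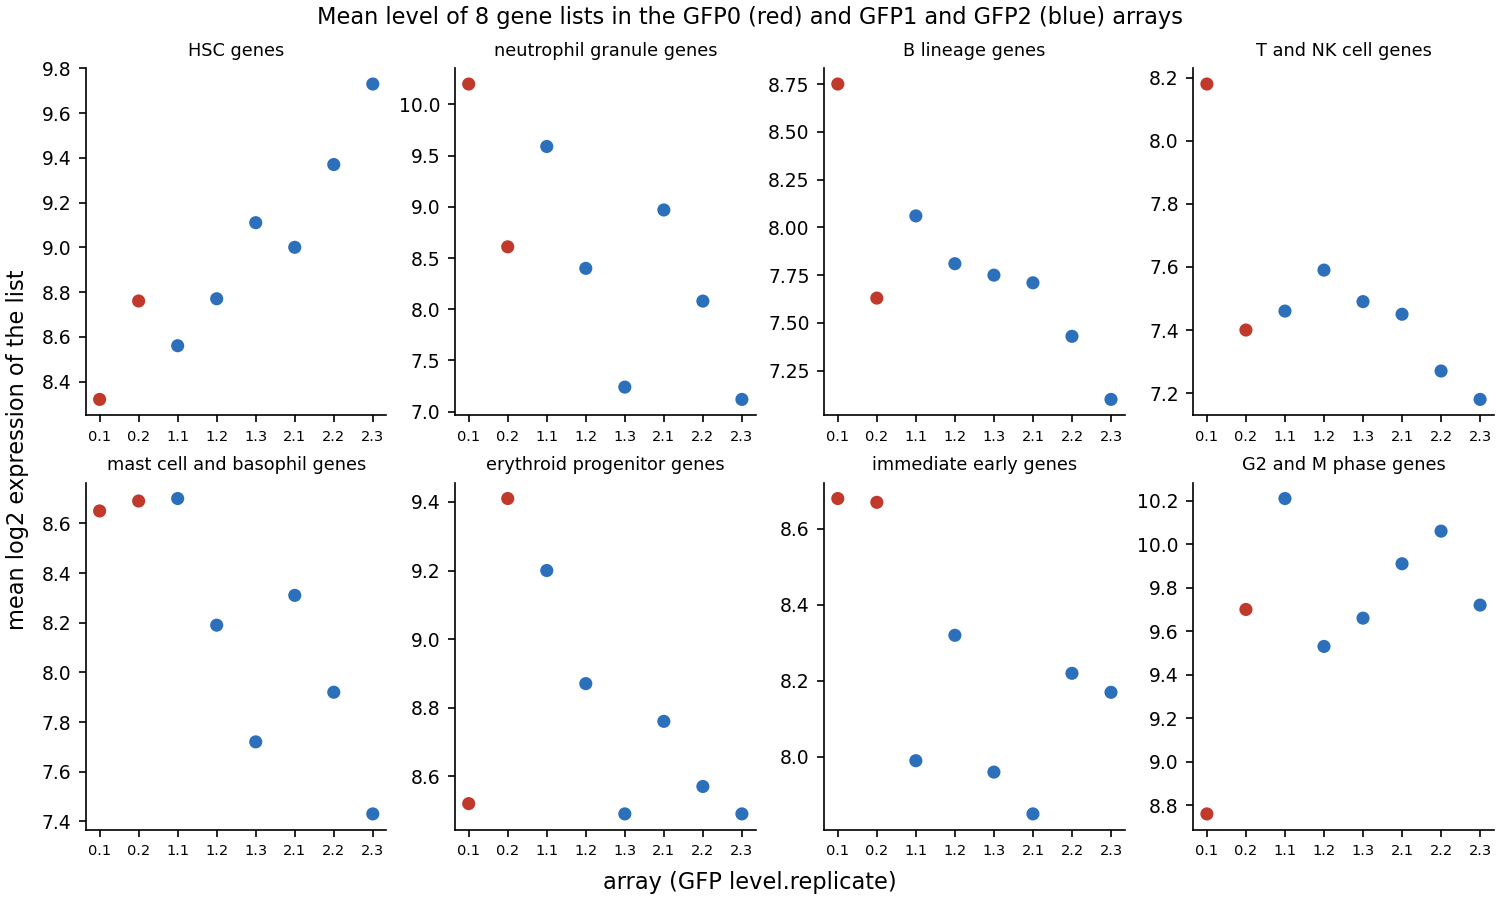
Mean log2 expression of 8 gene lists in each GFP0 (red), GFP1 and GFP2 (blue) array, named by GFP level and replicate. The immediate early list is above the 6 in both GFP0 arrays (8.68 and 8.67 against at most 8.32), while the B lineage and T and NK lists are above the 6 in replicate 1 alone.

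Il7r, the interleukin 7 receptor of lymphoid progenitors, was higher in both GFP0 arrays, at 10.44 and 10.04, than in any of the 6, which ran from 6.51 over a median of 8.30 to 9.46 (2.06 ± 0.41 SE, adjusted p = 0.154). Its difference was 1.20 ± 0.46 against GFP1 and 2.92 ± 0.46 against GFP2, and over the mean of its probe sets the pooled difference was 1.37. Rag2, a subunit of the antigen receptor recombinase, was also above all 6, at 8.48 and 8.10 against 6.63 to 7.68 (1.03 ± 0.27 SE, adjusted p = 0.223). The lymphoid progenitor list had members on both sides. Its median over 22 genes was -0.27 (-0.24 and -0.17), with 2 members above all 6 and 4 below, where 7.38% and 6.72% of all genes were. Below were Flt3, the cytokine receptor of lymphoid-primed progenitors (10.27 and 10.44 against 10.66 to 11.70), Cd27, a TNF receptor family member (9.02 and 9.33 against 9.82 to 10.45), Lax1 and Il12a. Dntt, the template-independent polymerase of early lymphoid cells, was high everywhere, at 13.81 and 13.72 against 13.08 to 14.02.

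H2-Aa and H2-Ab1 are chains of MHC class II, which presents antigen on B cells, dendritic cells and some progenitors. H2-Aa measured 13.54 and 13.35 against 12.24 to 12.95 (0.95 ± 0.20 SE, adjusted p = 0.176) and H2-Ab1 10.96 and 11.00 against 9.60 to 10.51 (1.06 ± 0.23 SE, adjusted p = 0.176), both without overlap. All 3 H2-Ab1 probe sets were higher, by 0.53 to 1.06. The 4 H2-Aa probe sets were higher by 0.84 to 2.43. All of them end in _x_at or _s_at, so H2-Aa could not be measured without such sets. H2-Eb1, at 10.57 and 10.76 against 9.14 to 10.66, overlapped through 1 GFP1 array. The class I gene H2-K1 was at 12.49 and 13.07 against 13.01 to 14.11, with replicate 1 below the 6 and replicate 2 within them. The class II chaperone Cd74, at 9.97 and 8.56 against 8.39 to 9.59, and the class II activator Ciita, at 7.01 and 6.72 against 6.56 to 6.98, overlapped with the 6. In the list as a whole, 18 genes had a median of -0.30 (-0.37 and -0.19), with 3 above all 6 (H2-Aa, H2-Ab1, H2-DMb2) and 0 below, where 7.38% and 6.72% of all genes were. Class I and class II genes were not tested against each other. H2-Aa averaged 13.03 in GFP3 and 13.38 in GFP4, near GFP0, and so was lower in GFP1 and GFP2 than at both ends, while H2-Ab1 averaged 10.01 and 9.90 there, near the 6.

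Immediate early genes, the transcription factors and regulators switched on within minutes of a stimulus, were higher in both GFP0 arrays. The median over 23 genes was 0.42, with 0.49 in replicate 1 and 0.26 in replicate 2, and 8 of 23 lay above all 6 arrays, where 7.38% of all genes do, and 0 below. With the interquartile range of the arrays in the model the median was 0.22. Egr2, a zinc finger factor, was at 5.74 and 7.17 against a lowest of 4.70 and a median of 4.83 in the 6 (1.62 ± 0.34 SE, adjusted p = 0.154). Jun, a subunit of AP-1, measured 9.22 and 10.02 against 7.55 to 9.07 (1.31 ± 0.39 SE, adjusted p = 0.223). Zfp36, which destabilizes cytokine mRNAs, was at 9.64 and 8.99 against 7.59 to 8.57, and Fosb at 6.92 and 5.86 against a median of 5.10 and a highest of 5.81. The other members above all 6 were Egr1, Atf3, Fos and Junb; Fos read 12.58 and 12.55 against 8.62 to 11.84. In the 4 GFP4 arrays the list averaged 8.29, and 1 of them was above the GFP0 values of 8.68 and 8.67.

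Heat shock genes gave the difference with the smallest p. Hspa1a, the inducible Hsp70 chaperone whose promoter is shown above, was at 7.53 in GFP0 replicate 1 and 10.20 in replicate 2, against 4.92, 5.26 and 5.76 as the lowest, median and highest of the 6 (3.58 ± 0.49 SE, adjusted p = 0.112). GFP3 and GFP4, at means of 5.34 and 5.13, were like the 6 and both GFP0 arrays were above every other array, though far from each other. The SD of Hspa1a was 1.89 in GFP0 and 0.30 in the 6, whereas its SE rests on a spread shared by all levels. Hspa1b, at 8.36 and 10.58 against 6.04 to 7.39 (2.58 ± 0.78 SE, adjusted p = 0.223), is a near-identical copy. In GFP4 it ran from 6.47 to 9.93, so that 1 GFP4 array was above GFP0 replicate 1, and with 3′ to 5′ covariates in the model its difference was 0.77. Probes for Hspa1a and Hspa1b may share signal, so the pair is not independent. Hsph1, a large Hsp70 family member, was at 11.96 and 12.59 against 10.70 to 11.76. The other Hsph1 probe set had a difference of 0.13. Bag3, an Hsp70 co-chaperone, was at 7.18 and 6.89 against 6.27 to 6.76. Serpinh1, a collagen chaperone, completed the 5 of 19 list members above all 6, with 0 below, where 7.38% and 6.72% of all genes were. The rest of the list was nearer the 6, as in Dnajb1, at 12.37 and 12.96 against 11.94 to 12.75, and Hsp90aa1, at 13.06 and 13.02 against 12.70 to 13.21. The list median was 0.25, with 0.31 in replicate 1 and 0.20 in replicate 2.

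In the unfolded protein response list 0 of 18 members were above all 6 and 2 below, beside 7.38% and 6.72% of all genes, and the median was -0.07 (-0.32 and 0.05). Trib3, a stress-induced pseudokinase, was at 6.96 and 7.01 against 7.90 to 9.93 (-1.94 ± 0.33 SE, adjusted p = 0.124), and its mean was 10.34 in GFP3 and 11.28 in GFP4. Without probe sets ending in _x_at or _s_at its difference was -0.64. Xbp1, a transcription factor of that response, was at 11.70 and 11.62 against 11.96 to 12.30.

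**Figure D4:**
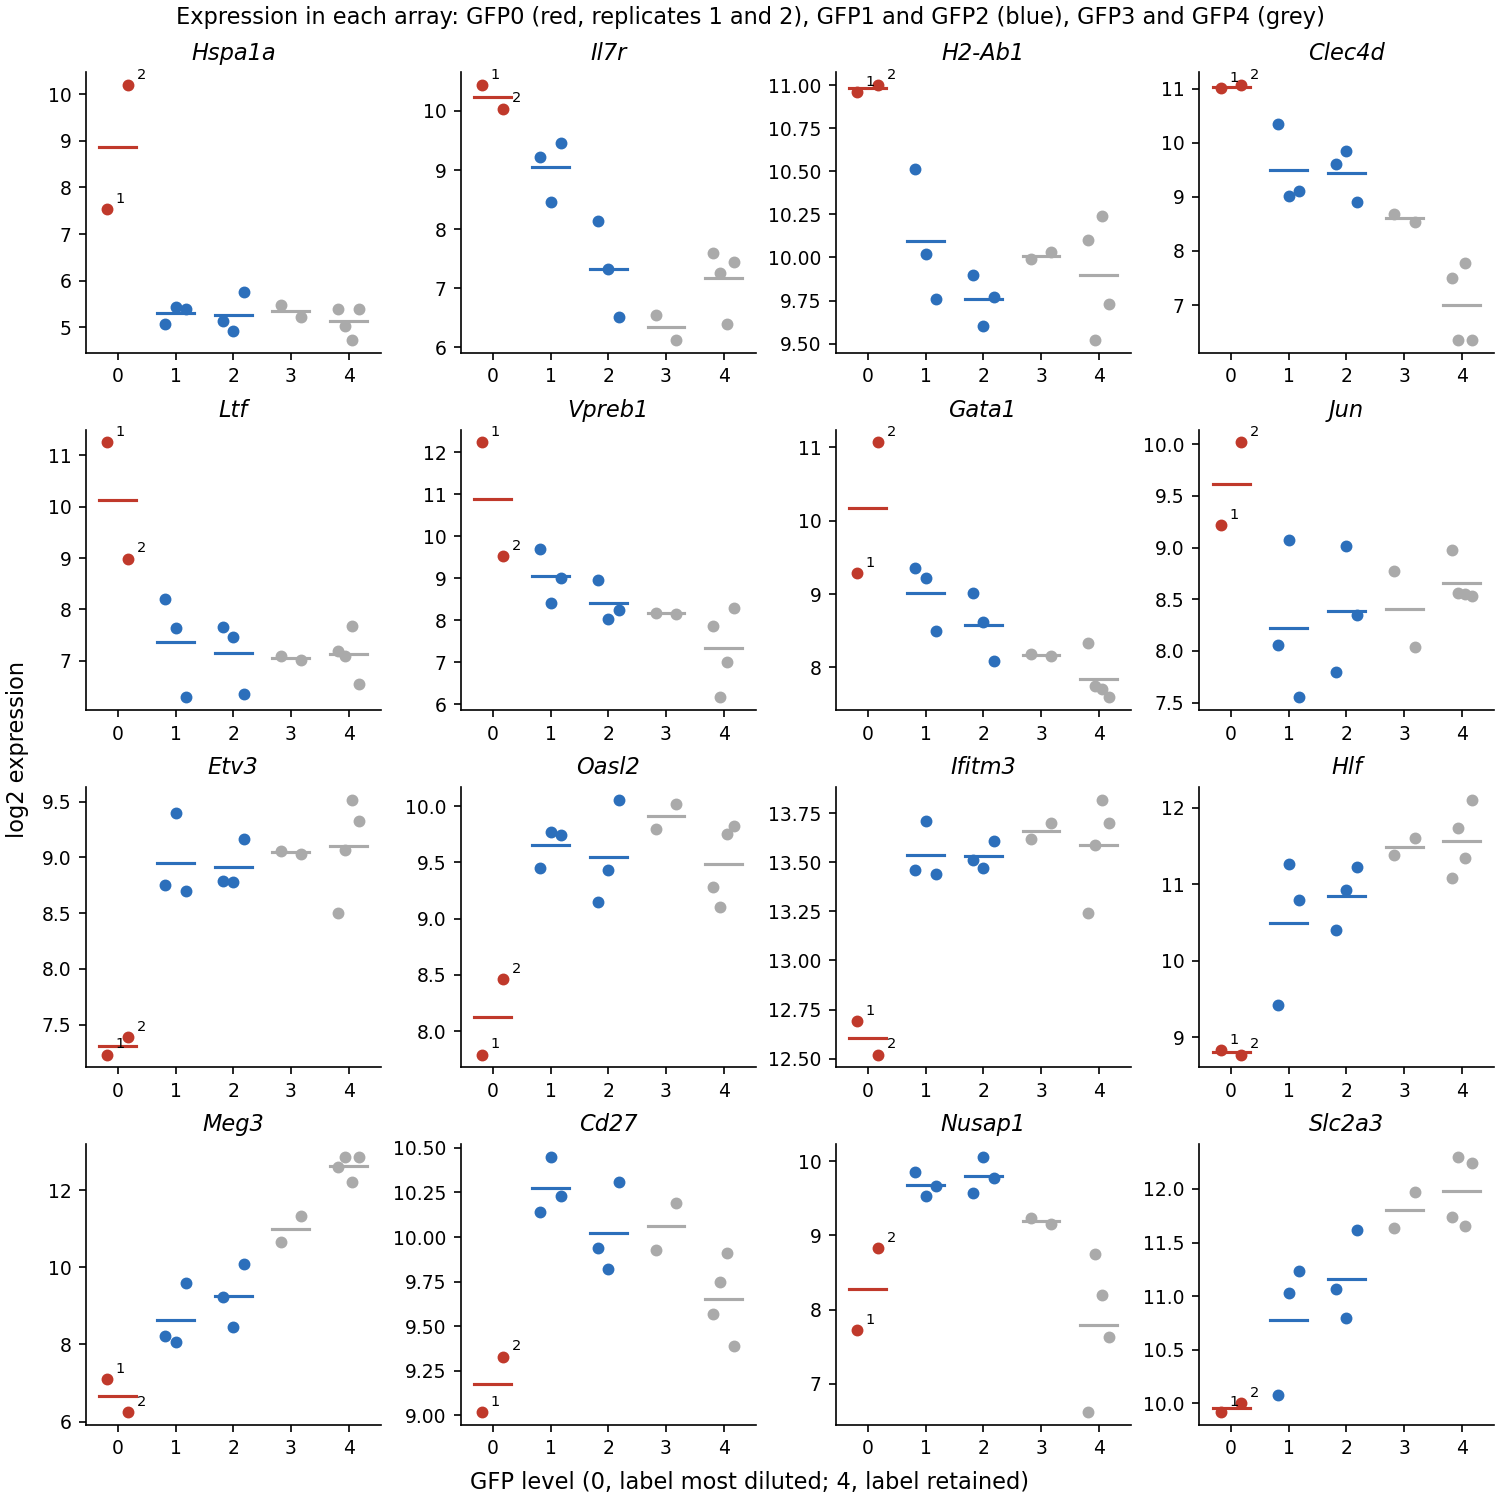
Log2 expression of 16 genes in every array by GFP level, with GFP0 in red (replicates numbered), GFP1 and GFP2 in blue and GFP3 and GFP4 in grey; lines are group means. Hspa1a, Il7r and H2-Ab1 have both GFP0 points above the blue points, Etv3, Oasl2, Ifitm3, Hlf and Meg3 have both below, and Gata1 has 1 of the 2 GFP0 points within the blue range.

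Neutrophil granule genes had the highest list median, 1.06, but it was 1.62 in GFP0 replicate 1 and 0.35 in replicate 2, and 0.40 with the interquartile range of the arrays in the model. Ltf, the secondary granule protein lactoferrin, was at 11.25 and 8.99 against 6.29 to 8.21 (2.86 ± 0.57 SE, adjusted p = 0.154), above all 6 in both arrays. Clec4d, a C-type lectin of myeloid cells, was alike in both, at 11.01 and 11.07 against 8.90 to 10.35 (1.57 ± 0.43 SE, adjusted p = 0.223), and it averaged 8.61 in GFP3 and 6.99 in GFP4. S100a9, an abundant calcium-binding protein of neutrophils, was at 13.07 and 9.17 against 6.44 to 10.85, and Lcn2 at 12.41 and 8.85 against 5.21 to 10.32, so that replicate 2 was within the 6 for both. Mmp9 and Ngp completed the 4 of 20 members above all 6, where 7.38% of all genes were. Padi4, an arginine deiminase, was below all 6, at 7.27 and 7.55 against 7.95 to 9.47. Primary granule and early myeloid genes had a median of 0.02 over 22 genes (-0.32 and 0.06), with 0 above all 6 and 2 below (Csf2ra and Calr), where 7.38% and 6.72% of all genes were. Mpo, myeloperoxidase, was at 11.98 and 13.61 against 9.89 to 14.06.

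B lineage, T and NK, and dendritic cell genes were higher in GFP0 replicate 1, by medians of 0.85, 0.65 and 0.84. They were not higher in replicate 2, with -0.04, -0.06 and -0.10. For both arrays together the medians were 0.40, 0.25 and 0.31. With the interquartile range of the arrays in the model these were 0.11, 0.07 and 0.07. Vpreb1, a surrogate light chain of early B cells, was at 12.24 and 9.52 against 8.04 to 9.70 (2.15 ± 0.64 SE, adjusted p = 0.223), and Cd22, a B cell lectin, at 9.08 and 7.26 against 6.73 to 7.18. Cd22 was thus above all 6 in both arrays, narrowly so in replicate 2. It was the 1 of 22 B lineage genes to be so, where 7.38% of all genes were. The other Cd22 probe set read 4.48 and 4.48 against a 6-array mean of 4.50. Pax5, the B cell commitment factor, was at 7.26 and 6.79 against 6.75 to 7.07. Among T and NK genes, Cd3d, a chain of the T cell receptor complex, was at 8.85 and 6.91 against 6.91 to 7.34. Cd8a (8.74 and 8.20 against 6.99 to 7.99), Cd8b1 and Gzma, a cytotoxic granule protease (8.33 and 7.01 against 6.20 to 6.69), were above all 6 in both. These were 3 of 22 T and NK genes, where 7.38% of all genes were above. The brightest Cd8a probe set ends in _x_at, and without such probe sets the difference was 0.16 in place of 0.99. Gimap4, of a family of lymphocyte GTPases, was at 9.63 and 6.59 against 5.80 to 7.25, whereas Gimap1 was at 8.25 and 8.08 and Gimap6 at 7.26 and 7.22, both below all 6. Id2, an inhibitor of B cell factors that acts in innate lymphoid, NK and dendritic cells, was at 8.62 and 8.35 against 5.98 to 8.38. Its other 2 probe sets differed by 0.02 and 0.41, and over the mean of its probe sets the difference was 0.61 in place of 1.40.

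**Figure D5:**
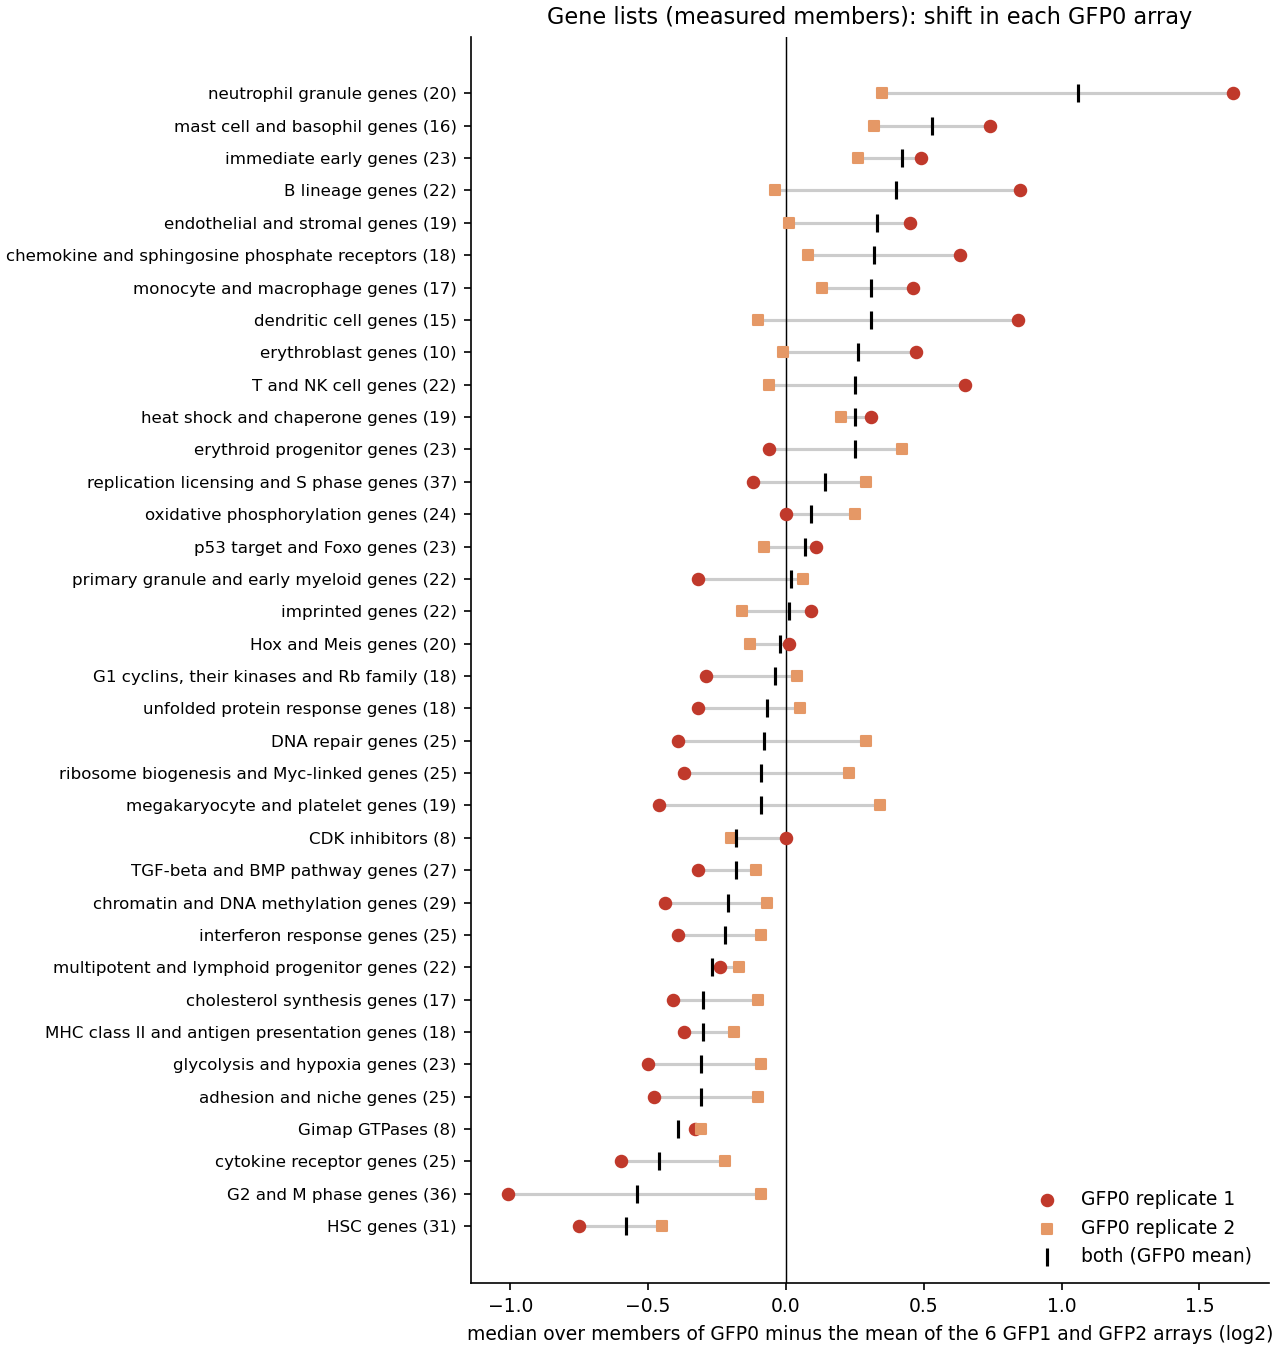
Median over the measured members of 36 gene lists (member number in parentheses) of each GFP0 array minus the mean of the 6 GFP1 and GFP2 arrays, with the difference of the GFP0 mean as a black tick. HSC genes lie at -0.75 and -0.45 in the GFP0 arrays, neutrophil granule genes at 1.62 and 0.35, and B lineage genes at 0.85 and -0.04.

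Erythroid progenitor genes were higher in GFP0 replicate 2, and the erythroblast list had no such order. The erythroid progenitor list had a median of 0.42 in replicate 2 and -0.06 in replicate 1, the erythroblast list -0.01 and 0.47. Gata1, the master factor of erythroid, megakaryocytic and mast cells, was at 9.28 and 11.07 against 8.09 to 9.35 (1.38 ± 0.40 SE, adjusted p = 0.223). Klf1, an erythroid factor, was at 8.59 and 11.25 against 7.56 to 10.27, and Car1, an early erythroid carbonic anhydrase, at 9.37 and 12.88 against 6.84 to 12.18. For all 3 genes replicate 1 lay within the 6. Of the 23 erythroid progenitor genes, 3 were above all 6 in both arrays and 2 below, where 7.38% and 6.72% of all genes were. Above were Epor, the erythropoietin receptor, at 8.11 and 8.35 against 7.47 to 7.94, and the membrane skeleton genes Ank1 and Add2. Nfe2 and Lmo2, factors shared with stem cells and megakaryocytes, were below all 6, Nfe2 at 10.57 and 11.04 against 11.19 to 11.90. Hba-a1, a globin gene of erythroblasts, was at 6.34 and 5.55 against 5.40 to 5.85. Megakaryocyte and platelet genes had a median of 0.34 in replicate 2 and -0.46 in replicate 1.

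Mast cell and basophil genes, in contrast, were higher in both, with medians of 0.74 and 0.32 over 16 genes, and 0.25 for both together with the interquartile range of the arrays in the model. Ms4a2, a chain of the IgE receptor, was at 9.40 and 11.07 against 6.43 to 10.31 (2.06 ± 0.80 SE, adjusted p = 0.251), and Cpa3, a mast cell protease, at 10.33 and 10.96 against 7.76 to 10.42. Both genes overlapped with the 6 through replicate 1. Gzmb was the 1 member of 16 above all 6 in both arrays, where 7.38% of all genes were, at 8.26 and 7.94 against 6.39 to 7.65. Cma1, a mast cell chymase, was at 7.46 and 7.21 against 5.68 to 7.30. The mean level of the list, 8.65 and 8.69, lay within the upper end of the 6, whose highest array was at 8.70.

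The cell cycle lists had no common direction. G2 and M phase genes had a median of -0.54 over 36 genes, but -1.01 in GFP0 replicate 1 and -0.09 in replicate 2, and -0.11 with the interquartile range of the arrays in the model. The difference was below 0 for 35 of the 36. Both GFP0 arrays were below the 6-array mean for 25 of the 36, where 28.7% of all genes were, and above it for 1. They were below all 6 for Nusap1, Kif23, Ube2c, Kif20a and Ccna2, where 6.72% of all genes were, and above all 6 for 0. Nusap1, a spindle protein, was at 7.72 and 8.83 against 9.53 to 10.06 (-1.46 ± 0.43 SE, adjusted p = 0.223), and its GFP4 mean, 7.80, was lower than its GFP0 mean. Ube2c, a ubiquitin-conjugating enzyme of mitotic exit, was at 6.78 and 7.67 against 8.04 to 9.65. Replication licensing and S phase genes had a median of 0.14 over 37 genes, with -0.12 in GFP0 replicate 1 and 0.29 in replicate 2. Of these genes 3 were above all 6 (Orc1, Mcm6 and Mcm4) and 0 below, where 7.38% and 6.72% of all genes were. In the brightest group of genes, which held 30 of the 37, those shares were 1.82% and 8.88%. Mki67, the proliferation marker, was at 11.18 and 11.99 against 11.51 to 12.15.

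Among regulators of G1, Cdk4 was below all 6, at 10.37 and 10.94 against 11.09 to 12.02 (-0.85 ± 0.24 SE, adjusted p = 0.223), whereas Cdk6, which sets the speed of exit from quiescence, was at 12.00 and 12.55 against 11.74 to 12.36. Cdkn1c, the p57 inhibitor that keeps HSCs quiescent, was at 6.94 and 7.86 against 7.73 to 8.97. Cdkn2a was the 1 of 8 members of its list above all 6, where 7.38% of all genes were, at 6.34 and 6.26 against 5.66 to 6.19. The 8 CDK inhibitor genes had a median of -0.18 (-0.00 and -0.20).

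The medians of the glycolysis, adhesion and cytokine receptor lists were below 0 in both arrays, less so in replicate 2. Their counts above and below all 6 stand beside 7.38% and 6.72% of all genes. Glycolysis and hypoxia genes had a median of -0.31 over 23 genes (-0.50 and -0.09), with 5 below all 6 and 0 above. These were Aldoc, an aldolase (7.93 and 7.49 against 8.72 to 9.54, -1.33 ± 0.35 SE, adjusted p = 0.223), Slc2a3, a glucose transporter (9.92 and 10.00 against 10.08 to 11.62), Pkm, Hk1 and Vegfa. Without probe sets ending in _x_at or _s_at the Slc2a3 difference was -0.10 in place of -1.01. Adhesion and niche genes had a median of -0.31 over 25 genes (-0.48 and -0.10), but -0.12 with the interquartile range of the arrays in the model and -0.06 over the mean of probe sets, and Alcam, Esam, Itga6, Icam1 and Adgrg1 were below all 6, with 0 above. Itga6, an integrin laminin receptor, was at 7.92 and 8.79 against a median of 9.31 and a highest of 9.86. The other Itga6 probe set had a difference of 0.12, in the opposite direction. Cytokine receptors had a median of -0.46 over 25 genes (-0.60 and -0.22), which was -0.22 both with the interquartile range of the arrays in the model and over the mean of probe sets, with Il7r and Epor above all 6 and Csf2ra, Tnfrsf1a, Flt3 and Ifnar1 below. Csf2ra, a chain of the GM-CSF receptor, was at 8.28 and 8.68 against 8.87 to 10.51 (-1.25 ± 0.38 SE, adjusted p = 0.223).

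Interferon response genes had a median of -0.22 over 25 genes (-0.39 and -0.09), with 2 below all 6 and 0 above, near the 6.72% of all genes that were below. The median was -0.03 with the interquartile range of the arrays in the model and -0.00 with cyclic loess. Oasl2, an interferon-induced 2′-5′ oligoadenylate synthetase-like gene, was at 7.79 and 8.46 against 9.15 to 10.06 (-1.47 ± 0.27 SE, adjusted p = 0.137), and Iigp1, an immunity-related GTPase, at 8.60 and 9.03 against 9.36 to 11.18. Uba7, the enzyme that activates the interferon-induced modifier ISG15, was below as well, at 8.75 and 9.08 against 10.03 to 10.95 (-1.37 ± 0.27 SE, adjusted p = 0.154). Both GFP0 arrays were below the 6-array mean for 9 of the 25 list genes and above it for 0, where 28.7% and 29.9% of all genes were. Chromatin genes had a median of -0.21 over 29 genes (-0.44 and -0.07), and of -0.02 with cyclic loess. Hdac1, Ring1, Ezh1 and Dnmt3a were below all 6 and Hells above, where 6.72% and 7.38% of all genes were. Dnmt3a, a DNA methyltransferase that limits HSC self-renewal, was at 8.01 and 8.57 against 8.63 to 9.38.

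Ribosome biogenesis genes had a median of -0.09 over 25 genes (-0.37 and 0.23), with 0 above or below all 6. DNA repair genes were at -0.08 over 25 (-0.39 and 0.29), so that both lists had opposite signs in the GFP0 arrays. Oxidative phosphorylation genes were at 0.09 over 24 (-0.00 and 0.25), Hox and Meis genes at -0.02 over 20 (0.01 and -0.13), p53 target and Foxo genes at 0.07 over 23 (0.11 and -0.08), imprinted genes at 0.01 over 22 (0.09 and -0.16) and TGF-beta and BMP genes at -0.18 over 27 (-0.32 and -0.11). Cholesterol synthesis genes were at -0.30 over 17 (-0.41 and -0.10), with 8 below the 6-array mean in both arrays and 0 above it in both. Of all genes 28.7% were below and 29.9% above. With the interquartile range of the arrays in the model the cholesterol median was -0.01. Chemokine and sphingosine phosphate receptors were at 0.32 over 18 (0.63 and 0.08), and at 0.09 with that range in the model, and Ccr2, the monocyte chemokine receptor, was at 9.98 and 9.19 against 8.01 to 9.09. In all, 725 of 787 list genes were measured, and 0 passed the adjusted threshold.

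Genes without overlap were also ranked by unadjusted p, and the first 12 each way were taken. Genes whose brighter group mean was under the median of all values, or whose probe set ends in _x_at, were left out. The 24 genes so picked were not led by known lineage genes alone. Since they were picked for this difference, their values are a description, and none passed. Etv3, a transcriptional repressor of the Ets family, was lowest in p among those lower, at 7.23 and 7.39 against 8.70 to 9.40 (-1.62 ± 0.26 SE, adjusted p = 0.124). Its other 3 probe sets differed by -0.37 to 0.09, so that it rests on 1 probe set. Npc1, a lysosomal cholesterol transporter, was at 5.35 and 6.17 against 6.74 to 7.76, Mfng, a Notch glycosyltransferase, at 9.42 and 9.95 against 10.55 to 11.36, and Pglyrp2, a peptidoglycan amidase, at 7.58 and 8.74 against 9.04 to 10.32. The other lower genes were Rnf214, Treml2, Odf2 and Mlec, with differences of -1.28, -1.16, -1.09 and -0.98, and 3 of these (Rnf214, Treml2, Mlec) had probe sets of the opposite sign. Higher were Gna14, a G protein subunit, at 7.16 and 8.36 against 5.64 to 6.56 (1.76 ± 0.32 SE, adjusted p = 0.132), Scin, an actin-severing protein, at 7.12 and 8.17 against 5.62 to 6.97, and St8sia6, a sialyltransferase, at 6.89 and 8.67 against 5.57 to 6.85. Slamf7, a lymphocyte and plasma cell receptor, was at 7.62 and 7.82 against 6.46 to 7.42, and Perp, a p53 target of cell junctions, at 7.70 and 7.95 against 6.65 to 7.16. Calm4 and 4930573G07Rik, higher by 0.93 and 0.89, completed the group.

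Many differences of single genes were smaller under other settings. Of the 171 genes named by rule, the difference shrank by more than 1.5 times or turned sign for 40 over the mean of probe sets, for 96 with the interquartile range of the arrays in the model and for 23 with 3′ to 5′ covariates. Over the mean of probe sets the difference was 1.08 for Gna14, -0.55 for Etv3, -0.65 for Csf2ra, -0.78 for Aldoc and -0.81 for Nusap1. With the interquartile range in the model it was 0.65 for Rag2, 1.34 for Vpreb1 and -0.04 for Cd34, and with 3′ to 5′ covariates it was 0.65 for Jun.

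Each level was also set against GFP0 by itself, and the step from GFP1 to GFP0 against the step from GFP2 to GFP1. Against GFP1, 0 genes passed (0%), the smallest adjusted p was 0.359, and 1969 genes (10.8%) had an unadjusted p below 0.05, 891 higher and 1078 lower. Against GFP2, 0 passed (0%), the smallest adjusted p was 0.107, and 2950 (16.2%) had an unadjusted p below 0.05, 1746 higher and 1204 lower. Between GFP2 and GFP1, 0 passed and 493 (2.71%) had an unadjusted p below 0.05. For the difference between the steps, 0 genes passed and 731 (4.02%) had an unadjusted p below 0.05, so no gene was shown to differ between the steps. The difference between steps was -0.53 ± 0.74 SE for Il7r, whose group means were ordered GFP0, GFP1, GFP2 from the highest, whereas that of Hspa1a was 3.53 ± 0.89 SE and that of Etv3 -1.68 ± 0.47 SE, all at an adjusted p of 0.98 (limma).

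Single genes showed how far the GFP0 arrays were from each other. Their difference had an SD of 0.66 over all genes; 831 genes were more than 1 higher in replicate 1 and 1248 more than 1 higher in replicate 2. D13Ertd608e, at 11.03 and 5.29, Wfdc21, a secreted protein of neutrophils, at 11.83 and 8.03, and Tubb2b, a beta tubulin, at 9.07 and 5.85 were far higher in replicate 1. Prkg1, a cGMP-dependent kinase, at 6.06 and 9.35, Cldnd1 at 8.49 and 11.11 and Fyttd1, an mRNA export adaptor, at 7.41 and 9.95 were far higher in replicate 2. For the last 3, replicate 2 lay within the range of the 6 arrays, and so did replicate 2 for D13Ertd608e, Wfdc21 and Tubb2b.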

How the data were processed

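Log2 expression values were used as deposited by the authors. GCOS, RMA and affy are named, without versions, in the submitters' processing notes. The log2 scale was read from the values, which run from 2.69 to 15.13 with a median of 7.03. RMA as usually run corrects background, normalizes quantiles and summarizes probes. The deposited arrays still differed in median, from 6.96 to 7.18, and in interquartile range, from 2.09 to 2.73. No detection calls were used, and the genome build is not given in the sources used here. Columns were tied to samples through their labels, and 0 columns were left over. Of 45101 probe sets, 34958 had 1 gene symbol in the platform annotation, 932 several and 9211 none. The brightest probe set, averaged over the 14 arrays, stood for each of the 18194 genes. Among the 171 named genes 79 had several probe sets, and for 23 of these a probe set had the opposite sign.

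Group means of 5 levels were fitted to 14 arrays in limma 3.58.1 (R 4.3.3) with empirical Bayes moderation (9 residual, 3.99 prior degrees of freedom), in two-sided tests; p-values were adjusted over all genes by the Benjamini-Hochberg method, with a threshold of 0.05. The fit was tested on simulated data. Named were up to 12 genes each way with non-overlapping arrays, a brighter group mean at the table median or above and no _x_at probe set, filled by smallest p as none passed; 4 members per list by p; up to 6 each way with the widest gap between GFP0 arrays; and a set of genes by name. Other list members printed, such as Fos or Mecom, were chosen after their values were seen. The comparison, lists and rules were chosen with earlier results of these data known. Alternatives covered samples in the fit, scaling, a filter on dim genes, probe set choice, variance model, array weights, replicate block, RNA quality and array spread covariates, and leaving out each array. Promoters came from RefSeq (GRCm38.p6). Figures were drawn with matplotlib 3.10.9.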

Additional observations from a re-analysis of the deposited data

Results flagged for a closer look

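Among the 171 named genes, 12 had 1 of the 6 GFP1 and GFP2 arrays standing apart from the other 5 by Dixon's criterion; chance alone sets apart about 1 in 20 such groups. In GFP1 replicate 2 the array apart was at 5.09 for Ccr3, 9.98 for Chaf1b, 9.72 for Chek2, 9.26 for Cldnd1, 7.67 for Hoxc6, 10.11 for Hyou1, 12.35 for Ndufa1 and 11.18 for Odc1. GFP1 replicate 1 stood apart at 11.01 for Cd48 and 10.66 for H2-Eb1, and GFP2 replicate 3 at 6.12 for Alas2 and 10.39 for Kif23. The H2-Eb1 value is the GFP1 array that overlaps with GFP0 for that gene. GFP1 replicate 2 had the narrowest interquartile range of the 6, 2.32; its part in these values was not tested.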

How the results depend on the processing

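Genes called in GFP0 against GFP1 and GFP2 numbered 0, but 1 (9130208D14Rik, lower) with only the 8 arrays, 3 (Rec114, St8sia6, Hspa1a) with the mean over probe sets, 3 (Hspa1a, Tmem45a2, Trgv4) with a trended, robust variance, and 0 to 567 with an array left out. The count at an unadjusted p below 0.05 was 1531 among genes at or above the table median (436 higher, 1095 lower), 1383 with array quality weights, 1517 with 3′ to 5′ covariates (464 higher, 1053 lower), 994 with the interquartile range as covariate, and 747 to 6048 with an array left out. Centring the arrays moved the median of all genes from 0.03 to -0.06 and the share of higher genes from 57.1% to 46.3%. With array quality weights, 0.358 for each GFP0 array, the smallest adjusted p (limma) was 0.405. The cause of these moves was not tested. Against GFP2, 0 became 1 with only the 8 arrays, 2 with the mean over probe sets, 5 with the trended variance, 1 with the replicate block and 0 to 42 with an array left out; against GFP1 an array left out gave 0 to 2, for the step 0 to 2 and for GFP2 against GFP1 0 to 3, where GFP1 replicate 3 was the array left out for the highest step and GFP2 counts. With the replicate block, 0 genes were called in the pooled comparison (limma, smallest adjusted p 0.0576). At an unadjusted p below 0.05 there were 2133. The primary granule list median was then -0.42 in place of 0.02. Same-numbered arrays correlated at -0.258 to 0.576 in their deviations from group means, and the main fit did not pair them. Neutrophil and HSC list means still ran with replicate number in both GFP1 and GFP2. The part of replicate number in the list differences was not tested. List medians moved by more than the spread between replicates in 88 of 1008 cases, and gene differences kept their sign and side in 4673 cases, came to pass in 38 and turned sign in 32. Sign turned for Sdhc (-0.13 with the mean over probe sets, -0.55 without _x_at and _s_at sets), Dlk1 (-0.36 without those sets), Wfdc21 (-0.09) and Mpo (-0.57) with the replicate block, and with 3′ to 5′ covariates for Cdk6 (-0.02), Mki67 (0.16), Mpo (-0.32) and Bex6 (-0.47). With the interquartile range it turned for Alpl (-0.06), E2f2 (-0.08), Msmo1 (0.15), Cxcr2 (-0.02), Wfdc21 (-0.86), Cldnd1 (0.40) and Mki67 (0.54). With an array left out, differences whose sign turned ran from -3.29 to 0.07 for Vwf, -0.18 to 1.75 for Cd3d, -0.00 to 1.05 for Alpl, -0.01 to 0.59 for E2f2, -0.09 to 0.71 for Polr1b, -0.75 to 4.98 for D13Ertd608e, -1.08 to 2.71 for Wfdc21, -0.01 to 3.03 for Gimap4, -0.06 to 3.44 for Car1, -3.07 to 0.22 for Prkg1, -2.16 to 0.46 for Cldnd1, -2.50 to 0.05 for Fyttd1, -0.67 to 0.14 for Mki67 and -0.63 to 1.00 for Mpo; both ends came from leaving out a GFP0 array.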
